A study of Mus musculus with 33 samples.

Results

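The genes described here are 10 members of the immediate early response, which are the AP-1 subunit genes Fos, Fosb, Fosl2, Jun, Junb and Jund, the zinc finger genes Egr1 and Egr2, and Ier2 and Dusp1. They were taken by name, and each had 1 row in all 33 count files, so that they make up 10 of the 37991 genes listed there. They were chosen because the APEX1 protein can activate AP-1 and because Egr1 was low in Apex1-labelled mESCs. The values of that 1 comparison, Apex1-labelled against control mESCs, are therefore given as a description without a test. The control mESCs also enter other comparisons, where the values of Egr1 are not free of this choice.

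Immediate early genes are switched on within minutes by growth factors, serum or stress, through kinase cascades that act on transcription factors already present in the cell. FOS and JUN proteins pair through a leucine zipper to form AP-1, and FOS proteins need a JUN partner to bind DNA. APEX1 cuts DNA at sites that have lost their base, in base excision repair, and is also known as a redox factor that keeps a cysteine in the DNA-binding region of FOS and JUN reduced. NEIL1 and NEIL2 are DNA glycosylases that remove oxidised bases and act before APEX1 in the same repair pathway.

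RNA was sequenced from E14TG2a cells, a mouse embryonic stem cell line, as undifferentiated mESCs, as embryoid bodies (EBs) harvested on day 8, and as EBs + RA, to which 5 µM retinoic acid (RA) was added from day 4. The lines labelled as knockouts were made by CRISPR/Cas9 with 2 guides each, and the control lines, labelled wild-type, were transfected with the Cas9 plasmid without a guide. Every line, controls included, went through selection with puromycin. Controls (clones #1, #4 and #7), Neil1-labelled lines (#7, #9 and #11) and Neil2-labelled lines (#1, #11 and #14) gave 3 libraries per stage, each from an independent clone. The Apex1-labelled line was a single clone (#46) sequenced in technical duplicates. Its p-values rest on the spread of the control clones and of these duplicates. They hold no spread between Apex1-labelled clones and cannot separate the genotype from the clone. Libraries held 21523742 to 48350904 counts on genes, and a single count was worth 0.0207 to 0.0465 CPM, the count scaled to the size of its library with TMM factors, the level used throughout unless another is named.

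On NCBIM37 (mm9), the build of the files, the AP-1 genes lie apart, with Fos at chr12:86814840-86818223 (plus), Fosb at chr7:19888070-19895394 (minus), Fosl2 at chr5:32438845-32460204 (plus), Jun at chr4:94715725-94718913 (minus), Junb at chr8:87500811-87502617 (minus) and Jund at chr8:73221638-73224515 (plus). Of the others, Egr2 at chr10:66998223-67004936 (plus), Ier2 at chr8:87185230-87186751 (minus) and Dusp1 at chr17:26642535-26645464 (minus) lie apart as well. Egr1, Jun and Jund overlap an annotated gene on the other strand. These antisense genes held 0 counts beside Egr1 and Jund, and 545 beside Jun, which is 1.22% of its 44777 counts over all libraries. Without strand, reads from such a pair cannot be told apart, and HTSeq-count would set aside those in shared exon bases. Low antisense counts would then not measure the loss, and the levels per length of Egr1, Jun and Jund could be too low.

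The targeted genes were read first, to see whether their counts check the labels. Counts on Apex1 went against a plain loss of its transcript. In the 6 libraries labelled Apex1 knockout they were 56.5 to 86.2 CPM, above the 4.44 to 22 CPM of all 27 other libraries. The 2 guides against Apex1 (chromosome 14, plus strand, NCBIM37) are shown because they mark what was meant to be removed, and each is followed by a TGG PAM in the genome.
guide 1, chr14:51546000-51546020: gtgcccgctaaaagtctctta
guide 2, chr14:51546586-51546605: aagatccggtccaaggctct
Their cut sites enclosed 585 bases, from 51546018 to 51546602, with 483 of the 1422 exon bases of Apex1. All of these 483 bases are also exon of Tmem55b, a gene on the other strand that shares 877 exon bases with Apex1. HTSeq-count sets aside a read that falls in overlapping genes, where strand is not used, and the kit named for these libraries keeps no strand. If the counting did not use strand, which the sources used here do not state, the Apex1 count came from exon bases outside the deletion and does not check it. Its direction opposite to the label is the reason that these are called Apex1-labelled libraries. Over all stages, Neil1 counts ranged from 1.38 to 31.5 CPM in the 9 Neil1-labelled libraries and from 4.89 to 13.4 CPM in the others. Neil2 counts ranged from 4.86 to 17.9 CPM in the 9 Neil2-labelled libraries and from 3.40 to 16.3 CPM in the others. These pooled ranges overlapped. In EBs + RA alone, Neil1 was 2.18 to 4.33 CPM in Neil1-labelled libraries. It was 6.04 to 8.11 in control, 5.96 to 6.77 in Neil2-labelled and 8.09 to 8.22 in Apex1-labelled ones, without overlap. In mESCs and in EBs the Neil1-labelled libraries overlapped the controls. Neil2 in EBs + RA was 4.86 to 5.85 CPM in Neil2-labelled libraries, above the 3.40 to 4.5 of the controls. The planned deletions covered 16.5% of the exon bases of Neil1 and 7.97% of those of Neil2, and gene counts do not check them either. The authors checked the lines by other means, with genotyping PCR, western blots for APEX1 and NEIL1, and RT-qPCR for Neil2.

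The cysteine on which the redox activity of APEX1 is known to act lies between a lysine and an arginine, and a search of the coding sequences found this triplet once in each of the 6 AP-1 members and in none of Egr1, Egr2, Ier2 and Dusp1. The coding bases around it, from the NCBIM37 transcripts, are shown because they are what the AP-1 members share and the other members lack, with the cysteine codon in capitals.
Fos, codon 154: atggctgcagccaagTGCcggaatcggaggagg
Fosb, codon 172: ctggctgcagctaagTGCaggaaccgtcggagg
Fosl2, codon 141: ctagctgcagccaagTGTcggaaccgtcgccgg
Jun, codon 272: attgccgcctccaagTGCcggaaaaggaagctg
Junb, codon 282: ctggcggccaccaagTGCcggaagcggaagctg
Jund, codon 279: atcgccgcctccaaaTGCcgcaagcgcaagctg
The measurements below are of RNA, which does not report the redox state of these proteins.

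In control mESCs the level per length, in CPM per kb of exon, was highest for Ier2, a small nuclear regulator of transcription, at 55.5 ± 7.67 (SD, n = 3 clones), followed by Egr1, a zinc finger activator that binds GC-rich sites, at 27.1 ± 11.7. Jund, Dusp1, Junb, Jun and Fos followed at 17.4, 15.0, 13.1, 8.47 and 4.52. From Egr1 to Jun each member overlapped the next between clones, while Fos did not overlap Fosb. Fosb and Fosl2 were low, at 1.14 ± 0.804 and 0.629 ± 0.212. Egr2 was barely detected at any stage, with 0 to 16 counts in a library and 263 counts in all 33 libraries together. The order changed with the stage. In EBs + RA the highest members after Ier2 were Jund at 31.6 ± 5.66 and Jun at 28.1 ± 4.05 CPM per kb.

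**Figure D1:**
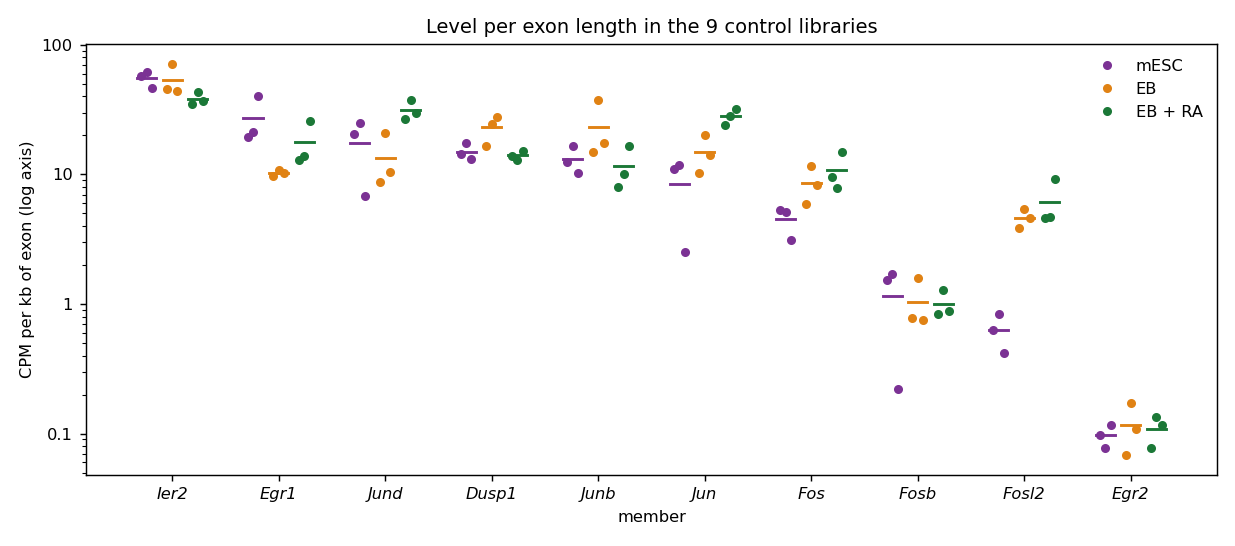
Level of each member in CPM per kb of exon (log axis) in the 9 control libraries; points are clones and bars are means of 3. Ier2 had the highest mean at every stage, Egr2 the lowest, and Fosl2 was lower in mESCs (mean 0.629) than in EBs (4.64) and EBs + RA (6.16).

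How the members changed as control cells differentiated was tested first, because the other lines are read against it. From mESCs to EBs, 5 of the 9 members tested were called (4 raised and 1 lowered), where 38.7% of all genes tested were called (18.5% raised and 20.2% lowered). A gene was called where its FDR was below 0.1 and its log2 fold change beyond 0.5 in either direction, the FDR being the Benjamini-Hochberg adjusted p over all genes tested of the quasi-likelihood test of edgeR. Fosl2, a FOS-family subunit, was 3.70, 4.92 and 2.44 CPM in the mESCs of clones #1, #4 and #7 and 22.8, 31.6 and 27.2 CPM in their EBs, a rise of 2.86 ± 0.25 (SE) on the log2 scale (FDR 4.79e-05). Egr1 was 60.4, 65.3 and 126 CPM in these mESCs and 30.1, 33.6 and 31.6 CPM in the EBs, a change of −1.42 ± 0.26. The stages did not overlap for either gene. Egr1 was chosen on a comparison that holds these same control mESC values. Its change is therefore a description, and its call, the 1 lowered, is not read as a result. Fos, the founding member of its family, rose by 0.90 ± 0.28 (FDR 0.027), Junb by 0.81 ± 0.32 (FDR 0.074) and Dusp1, a phosphatase that switches off MAP kinases, by 0.60 ± 0.19 (FDR 0.033). The call of Fos was lost without the EB library of clone #4, that of Dusp1 without the EB library of clone #7, and that of Junb without the mESC library of clone #1 or #7 or the EB library of clone #4.

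Control clone #7 stood apart in mESCs. Its Jun level was 8.02 CPM against 35.5 and 37.5 in the other control clones, its Jund level 19.5 against 58.8 and 72.0, and its Fosb level 0.825 against 5.71 and 6.36, while its Egr1 level was the highest of the 3. In its EBs and EBs + RA these genes were not below both other clones at once, except Fosb in EBs.

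Between control EBs and EBs + RA, 5 of 10 members were called (3 raised and 2 lowered) where 44.1% of all genes were called (23.3% raised and 20.7% lowered). Jun was 32.5, 64.9 and 45.4 CPM in EBs and 76.6, 90.4 and 102 in EBs + RA, a rise of 0.91 ± 0.23 (FDR 0.012). Jund, the subunit usually present without stimulation, was 25.1, 59.8 and 30.3 CPM in EBs and 77.6, 109 and 85.7 in EBs + RA, a rise of 1.24 ± 0.31 (FDR 0.011). The groups did not overlap for either gene. Egr1 rose by 0.78 ± 0.25 (FDR 0.032), a call that was lost without the EBs + RA library of clone #7. Dusp1 fell by 0.73 ± 0.18 on the log2 scale (FDR 0.0090), and Junb changed by −1.02 ± 0.39 (FDR 0.062), a call that was lost without the EB library of clone #4 or the EBs + RA library of clone #1 or #4.

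Egr1, the gene named in the choice of members, was low in Apex1-labelled mESCs. It was 8.24 and 10.3 CPM in the duplicates of clone #46, against 60.4, 65.3 and 126 CPM in the controls, 44.9, 77.7 and 77.4 in Neil1-labelled and 73.9, 66.4 and 64.5 in Neil2-labelled mESCs. The Apex1-labelled values lay below all 9 others, and the mean was 9.05-fold lower than that of the controls (log2 fold change −3.21 ± 0.38). Fosb was 0.657 and 0.401 CPM there against 5.71, 6.36 and 0.825 in the controls (log2 fold change −3.03 ± 0.87), which rested on 20 and 11 counts. Without control clone #7, which was high for Egr1 and low for Fosb, the log2 fold change was −2.79 for Egr1 and −3.51 for Fosb, so that the order of the 2 genes turned. Fos was 4.14 and 4.59 CPM against 12.5, 12.0 and 7.35 in the controls (log2 fold change −1.31 ± 0.28), and the groups did not overlap.

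For the other members of Apex1-labelled mESCs the log2 fold change was −1.59 ± 0.52 for Jund, −1.19 ± 0.58 for Jun, −0.81 ± 0.27 for Junb, −0.75 ± 0.20 for Ier2 and −0.55 ± 0.15 for Dusp1. Jun, at 11.6 and 12.5 CPM, and Jund, at 12.7 and 21.2 CPM, overlapped the controls through clone #7, while Junb, Ier2 and Dusp1 did not overlap them. Fosl2 had a log2 fold change of 0.39 ± 0.33 and overlapped them. The median over the 9 members that passed the filter on low counts was −1.19, against −0.023 over all genes tested, and 16.9% of all genes were called in this comparison, from which nothing is read for members that were chosen on it. Pluripotency markers summed to 3105 and 3136 CPM in these libraries and to 3773 to 3882 CPM in the controls, and their part in these values was not tested.

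**Figure D2:**
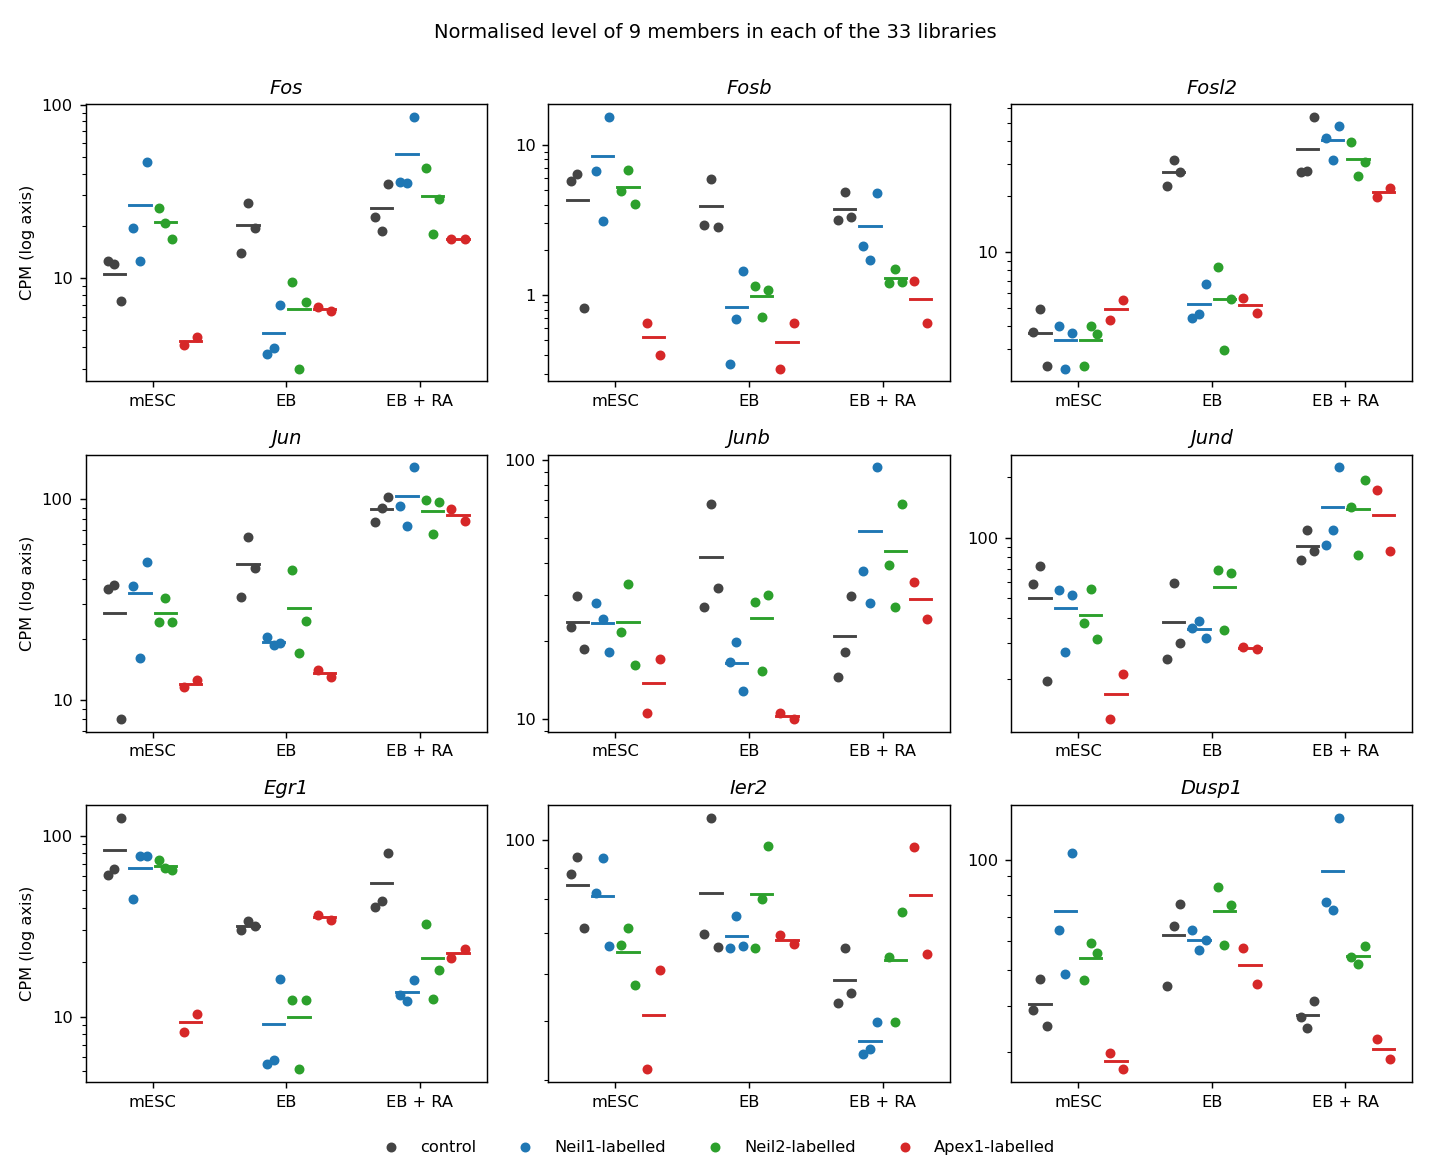
Level of 9 members in CPM (log axis) in each of the 33 libraries, by stage and labelled genotype; points are libraries and bars are group means (n = 3, or 2 for Apex1-labelled). Egr1 in Apex1-labelled mESCs (8.24 and 10.3) lay below all other mESC libraries, and Fosl2 in EBs was 22.8 to 31.6 in controls and 2.97 to 8.32 in the 8 other libraries.

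No member was called in Neil1-labelled or Neil2-labelled mESCs. For Neil1-labelled mESCs edgeR called 0 of 9 members tested, where 1.82% of all genes were called. Fos and Dusp1 were the 2 members with an unadjusted p under 0.05, and DESeq2 called both. For Neil2-labelled mESCs edgeR called 0 of 9, where 1.83% of all genes were called, 3 members had an unadjusted p under 0.05, and DESeq2 called 1, Fos. Fos was 19.5, 12.5 and 46.7 CPM in Neil1-labelled and 25.3, 20.8 and 16.9 CPM in Neil2-labelled mESCs, against 12.5, 12.0 and 7.35 in the controls. Every Neil2-labelled value lay above the controls, with a log2 fold change of 0.96 ± 0.23 that did not pass (FDR 0.11), and that of Neil1-labelled mESCs was 1.28 ± 0.49 (FDR 0.29). Egr1 had log2 fold changes of −0.35 ± 0.33 and −0.32 ± 0.26, with FDRs of 0.66 and 0.60.

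In EBs the FOS-family genes were lower than in controls in all 3 labelled lines. Each line was compared with the same 3 control libraries, so that these comparisons are not independent of each other. In Neil1-labelled EBs 6 of 9 members tested were called, all lowered, where 23.5% of all genes were called and 13.1% were lowered. In Neil2-labelled EBs it was 4 of 9, all lowered, against 16.3% called and 7.69% lowered, and in Apex1-labelled EBs 5 of 10, all lowered, against 25.8% called and 13.9% lowered. The medians over the members tested were −1.36, −0.76 and −1.01, and those over all genes tested were −0.00058, 0.023 and −0.00015.

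Fosl2 gave the clearest difference. It was 22.8, 31.6 and 27.2 CPM in control EBs, and 4.45, 4.68 and 6.74 in Neil1-labelled, 8.32, 2.97 and 5.58 in Neil2-labelled and 5.68 and 4.69 in Apex1-labelled EBs. All 8 values were below all 3 controls and next to those of mESCs, which were 2.36 to 5.54 CPM over the 11 mESC libraries. The log2 fold changes were −2.35 ± 0.19 (FDR 1.37e-05), −2.25 ± 0.33 (FDR 0.0039) and −2.39 ± 0.18 (FDR 1.79e-05), and each was called under every alternative tried.

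Fos was 13.9, 27.2 and 19.4 CPM in control EBs, 3.65, 3.94 and 7.00 in Neil1-labelled, 9.53, 3.01 and 7.30 in Neil2-labelled and 6.85 and 6.44 in Apex1-labelled EBs. No library overlapped the controls. The log2 fold changes were −2.03 ± 0.31 (FDR 0.0016), −1.59 ± 0.40 (FDR 0.034) and −1.60 ± 0.27 (FDR 0.0031). The call in Neil2-labelled EBs was lost without the control library of clone #4 or the Neil2-labelled library of clone #14. Fosb, whose shorter form lacks part of the activation domain, changed by −2.17 ± 0.48 (FDR 0.0085), −1.96 ± 0.38 (FDR 0.012) and −2.98 ± 0.46 (FDR 0.0012), at 7 to 39 counts in these 8 libraries and 77 to 152 in the controls.

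In the JUN family, Jun was 32.5, 64.9 and 45.4 CPM in control EBs, 20.5, 18.7 and 19.2 in Neil1-labelled and 14.1 and 13.0 in Apex1-labelled EBs, with log2 fold changes of −1.28 ± 0.22 (FDR 0.0029) and −1.81 ± 0.30 (FDR 0.0068). In Neil2-labelled EBs it was 44.2, 17.1 and 24.8 CPM, which overlapped the controls (−0.71 ± 0.35, FDR 0.24). Junb was called in Neil1-labelled EBs (−1.36 ± 0.38, FDR 0.041) and Apex1-labelled EBs (−2.04 ± 0.51, FDR 0.046) and not in Neil2-labelled EBs (−0.76 ± 0.37, FDR 0.23). The first of these calls was lost without the Neil1-labelled library of clone #7 or #11, and the second without the control library of clone #7, without either duplicate, or with the duplicates summed (FDR 0.15). Jund was called in none of the 3 lines, with log2 fold changes of −0.12 ± 0.32, 0.58 ± 0.35 and −0.43 ± 0.43.

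Egr1 in EBs differed by line. It was 30.1, 33.6 and 31.6 CPM in controls, 5.45, 5.73 and 16.2 in Neil1-labelled and 12.4, 5.10 and 12.3 in Neil2-labelled EBs, and 36.6 and 34.1 in Apex1-labelled EBs. All Neil1-labelled and Neil2-labelled values lay below the controls, with log2 fold changes of −1.78 ± 0.42 (FDR 0.022) and −1.67 ± 0.30 (FDR 0.0086), and both Apex1-labelled values lay just above them (0.15 ± 0.11, FDR 0.32). Whether the lines differ from each other was not tested. Ier2 and Dusp1 were called in none of the 3 lines, and their log2 fold changes lay between −0.27 and 0.24.

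Sums of cell type markers were read in the same EBs. The 6 mesenchyme and fibroblast markers summed to 182 to 300 CPM in control EBs and to 26.2 to 39.3, 18.2 to 47.3 and 37.7 to 49.8 CPM in Neil1-, Neil2- and Apex1-labelled EBs, with 5, 5 and 4 of 6 lowered and none raised. The 6 pluripotency markers summed to 1580 to 1628 CPM in control EBs and to 1858 to 2888 CPM in the 8 others, with 6, 5 and 4 of 6 raised. Of all genes, 23.5%, 16.3% and 25.8% were called in these lines in either direction, and 13.1%, 7.69% and 13.9% were lowered. Primitive and visceral endoderm markers summed to 309 to 572 CPM in control EBs, 600 to 714 in Neil1-labelled, 195 to 900 in Neil2-labelled and 93.8 to 102 in Apex1-labelled EBs. No marker of these 3 lists was at 0 throughout a group. In bulk samples fewer cells of a type and less RNA per cell cannot be told apart, and the part of these markers in the fall of the members was not tested.

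**Figure D3:**
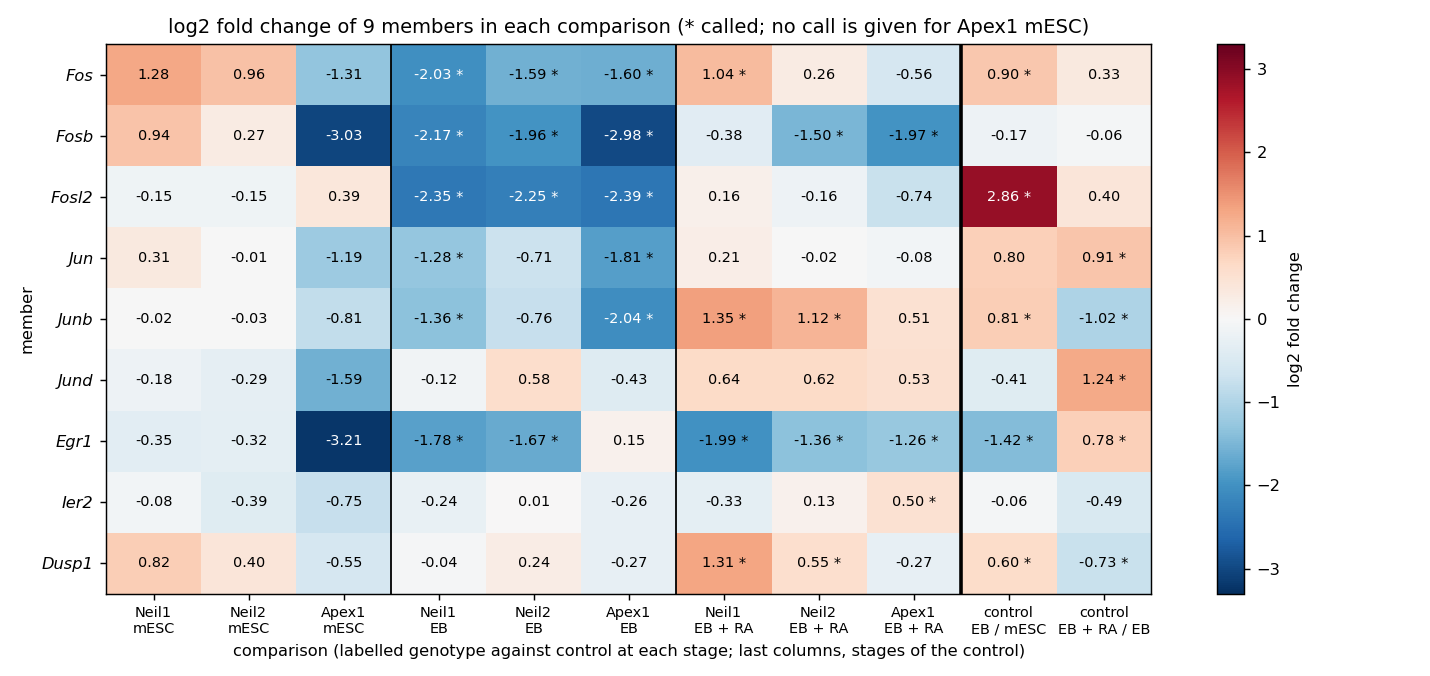
log2 fold change (colour and number) of 9 members in 9 comparisons with the control of the same stage and, at the right, between stages of the control; an asterisk marks a call, and none is given for Apex1-labelled mESCs. In EBs Fos, Fosb and Fosl2 were called lower in all 3 lines (from −1.59 to −2.98). In EBs + RA Egr1 was called lower in all 3 (from −1.26 to −1.99). The asterisk of Egr1 between control mESCs and EBs rests on mESC values used in its choice.

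In EBs + RA members were called in both directions. In Neil1-labelled EBs + RA 4 of 10 members were called, 3 raised and 1 lowered, where 41.1% of all genes were called (21.2% raised and 19.9% lowered). In Neil2-labelled EBs + RA it was 4 of 10, 2 raised and 2 lowered, against 34.9% (18.3% raised and 16.6% lowered), and in Apex1-labelled EBs + RA 3 of 10, 1 raised and 2 lowered, against 24.8% (13.9% raised and 10.9% lowered). The shares of members called were thus close to those of all genes. The medians were 0.29, 0.057 and −0.42, against 0.0015, 0.0047 and −0.017 over all genes.

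Egr1 was lower in all 3 lines. It was 40.2, 43.5 and 80.5 CPM in control EBs + RA, 13.1, 12.2 and 15.9 in Neil1-labelled, 32.4, 12.5 and 18.1 in Neil2-labelled and 21.1 and 23.7 in Apex1-labelled EBs + RA. No library overlapped the controls. The log2 fold changes were −1.99 ± 0.28 (FDR 0.0016), −1.36 ± 0.38 (FDR 0.027) and −1.26 ± 0.30 (FDR 0.021), of which the last was lost without either duplicate or with the duplicates summed (FDR 0.16). Fosb was lowered in Neil2-labelled (−1.50 ± 0.29, FDR 0.0062) and Apex1-labelled EBs + RA (−1.97 ± 0.39, FDR 0.011), the latter call being lost without the second duplicate, and had a log2 fold change of −0.38 ± 0.42 in Neil1-labelled EBs + RA.

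Dusp1 was raised in both glycosylase lines. It was 37.4, 34.9 and 41.2 CPM in controls, 76.8, 73.1 and 130 in Neil1-labelled and 54.3, 52.1 and 58.1 in Neil2-labelled EBs + RA, with log2 fold changes of 1.31 ± 0.23 (FDR 0.0039) and 0.55 ± 0.11 (FDR 0.0081). The groups did not overlap. The second call was lost without the control library of clone #4. In Apex1-labelled EBs + RA, Dusp1 was 32.6 and 28.7 CPM, below the controls, and did not pass (−0.27 ± 0.14, FDR 0.22).

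Junb was 14.5, 18.2 and 29.8 CPM in control EBs + RA, 37.2, 28.1 and 93.7 in Neil1-labelled and 39.4, 27.1 and 67.4 in Neil2-labelled EBs + RA, and the groups overlapped through control clone #7. Its log2 fold changes were 1.35 ± 0.46 (FDR 0.053) and 1.12 ± 0.36 (FDR 0.045). Fos was 35.6, 35.5 and 84.8 CPM in Neil1-labelled EBs + RA against 22.5, 18.7 and 34.8 in controls (1.04 ± 0.38, FDR 0.063). In Neil1-labelled EBs + RA the calls of Fos and Junb were lost without the library of clone #11, with log2 fold changes as low as 0.50 and 0.65, and also without the control library of clone #1 or #4. The Junb call in Neil2-labelled EBs + RA was lost without control clone #1 or #4 or Neil2 clone #14. Ier2 was called raised in Apex1-labelled EBs + RA (0.50 ± 0.19, FDR 0.098), a call that 5 of 7 alternatives and 3 of 5 left-out libraries removed.

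Clone #11 of the Neil1-labelled EBs + RA stood apart. It had the highest Fos, Jun, Junb, Jund and Dusp1 levels of all 33 libraries, at 84.8, 144, 93.7, 222 and 130 CPM. The sum of the endoderm markers was 893 to 4243 CPM in the Neil1-labelled group, against 318 to 915 in the controls. These sums were read by group, and the clone with the highest is not named here. Neural markers, on the other hand, were low in all 3 lines, at 34.8 to 72.3 CPM against 261 to 449 CPM in control EBs + RA, with 5 of 5 tested markers lowered in each. Macrophage markers summed to 42.2 to 94.7 CPM in Neil1-labelled and 27.6 to 37.5 in Neil2-labelled EBs + RA, against 14.2 to 21.7 in controls and 13.0 to 14.8 in Apex1-labelled EBs + RA, and mesenchyme and fibroblast markers to 80.7 to 182, 55.0 to 115, 264 to 377 and 209 to 276 CPM in the same order. The part of these markers in the values of the members was not tested.

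The response to RA was compared between each line and the control by an interaction term, the difference between the EBs + RA against EBs change of the line and that of the control, on the log2 scale. In the Neil1-labelled line 6 of 10 members were called, all with a higher response, where 29.6% of all genes were called, 16.5% with a higher response. In the Neil2-labelled line it was 3 of 10, all higher, against 15.0% called and 7.31% higher, and in the Apex1-labelled line 4 of 10, 3 higher and 1 lower, against 15.7% (10.0% higher and 5.70% lower). These differences contain the EB values given above. In those EBs the members called here were also called lower in the same line, with the following exceptions. The log2 fold change was −0.04 ± 0.17 (FDR 0.89) for Dusp1 in Neil1-labelled EBs and −0.76 ± 0.37 (FDR 0.23) for Junb in Neil2-labelled EBs. For Egr1 in Apex1-labelled EBs it was 0.15 ± 0.11 (FDR 0.32).

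Fosl2 was called in all 3 lines. Its mean rose 1.33-fold from EBs to EBs + RA in the controls, 7.62-fold in the Neil1-labelled, 5.68-fold in the Neil2-labelled and 4.07-fold in the Apex1-labelled line. The differences from control were 2.54 ± 0.38 (FDR 0.00081), 2.07 ± 0.47 (FDR 0.014) and 1.64 ± 0.40 (FDR 0.027). With RA, the Neil1- and Neil2-labelled libraries, at 25.9 to 48.1 CPM, lay in or near the range of the controls, at 27.2 to 53.6 CPM, and both Apex1-labelled libraries lay below it, at 19.9 and 22.3 CPM.

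Junb was also called in all 3 lines, with differences of 2.74 ± 0.67 (FDR 0.014), 1.86 ± 0.57 (FDR 0.056) and 2.53 ± 0.61 (FDR 0.032). Its mean was 2.03-fold lower in control EBs + RA than in control EBs and 3.23-fold, 1.81-fold and 2.84-fold higher in the 3 lines. Fos was called in the Neil1-labelled (3.10 ± 0.57, FDR 0.0035) and Neil2-labelled lines (1.82 ± 0.57, FDR 0.060) and not in the Apex1-labelled line (1.02 ± 0.41, FDR 0.14). Jun was called in the Neil1-labelled (1.51 ± 0.36, FDR 0.012) and Apex1-labelled lines (1.72 ± 0.34, FDR 0.0092). Fosb (1.82 ± 0.69, FDR 0.075) and Dusp1 (1.37 ± 0.31, FDR 0.0080) were called in the Neil1-labelled line.

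Egr1 was the 1 member called with a lower response, in the Apex1-labelled line (−1.43 ± 0.35, FDR 0.026), where its mean was 1.58-fold lower in EBs + RA than in EBs, against a 1.72-fold rise in controls. With the Apex1 duplicates summed to 1 library, edgeR called 0 of the 10 members in this comparison, with 4 at an unadjusted p under 0.05. With the clone, which the labels give as shared between stages, as a block, the calls above remained and 1 member was added in each glycosylase line, Egr2 in the Neil1-labelled (FDR 0.078) and Jun in the Neil2-labelled line (FDR 0.079). In the Apex1-labelled line, where both libraries of a stage are clone #46 and the block pairs the duplicates by number only, Ier2 was added (FDR 0.033). Leaving out single libraries removed the call of Fosb in the Neil1-labelled line in 6 of 12 fits, those of Fos and Junb in the Neil2-labelled line in 6 and 5 of 12, and those of Junb, Fosl2 and Egr1 in the Apex1-labelled line in 3, 1 and 1 of 10.

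**Figure D4:**
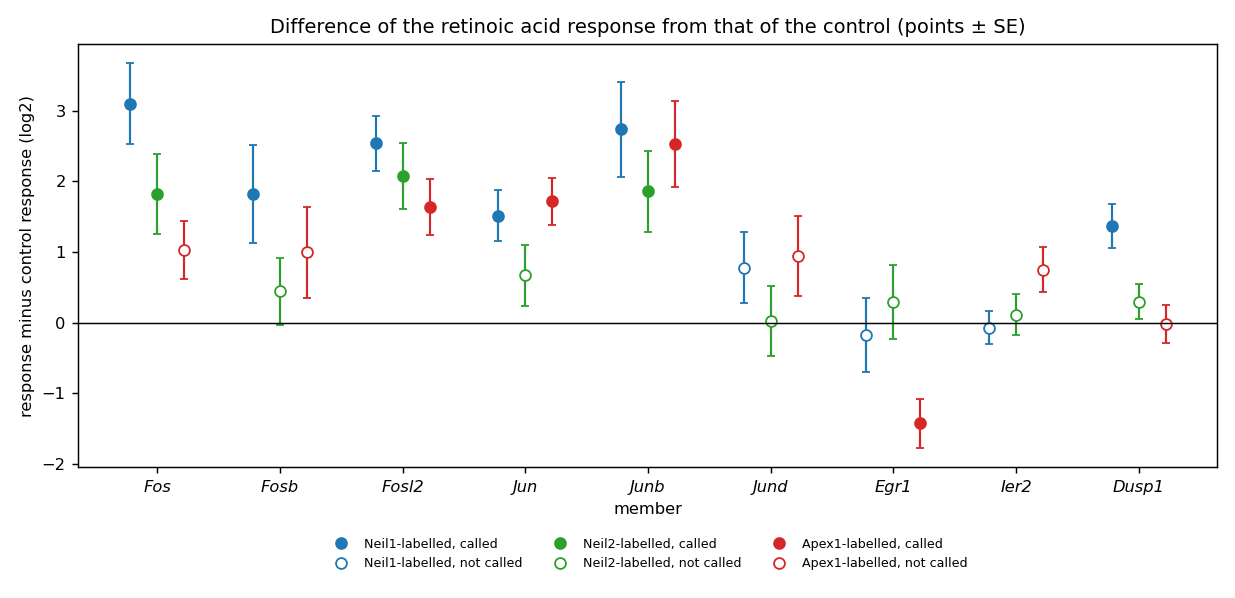
Difference between the response to RA (EBs + RA against EBs) of each labelled line and that of the control, as points ± SE on the log2 scale; filled points were called. Fos in the Neil1-labelled line was the highest (3.10) and Egr1 in the Apex1-labelled line the lowest (−1.43).

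Other genes of the same pathways were read from lists of related genes, and their counts stand beside the shares of all genes called. In EBs 13.1%, 7.69% and 13.9% of all genes were lowered in the Neil1-, Neil2- and Apex1-labelled lines, and 23.5%, 16.3% and 25.8% were called in either direction. In EBs + RA 21.2%, 18.3% and 13.9% were raised and 19.9%, 16.6% and 10.9% lowered. Of 22 other immediate early genes tested in Apex1-labelled EBs, 11 were lowered and 2 raised, led by Ier5 (−1.72 ± 0.14, FDR 2.43e-05) and Klf6 (−1.42 ± 0.12, FDR 2.5e-05) and by Mcl1 (0.90 ± 0.09, FDR 7.36e-05). Of 21 tested it was 9 lowered and 1 raised in Neil1-labelled and 4 lowered and 2 raised in Neil2-labelled EBs, where Ier5 also led those lowered (−1.27 ± 0.13, FDR 7.29e-05, and −1.30 ± 0.17, FDR 0.0022). In EBs + RA the balance was 14 raised and 2 lowered of 23 in Neil1-labelled, 8 and 5 of 22 in Neil2-labelled and 5 and 6 of 22 in Apex1-labelled libraries, with Gadd45b, a stress-induced growth arrest gene, first among those raised in both glycosylase lines (1.51 ± 0.16, FDR 0.00049, and 1.41 ± 0.19, FDR 0.0015). Of 15 AP-1 target genes tested, 6 were lowered in the EBs of each line and 2, 2 and 1 were raised. The matrix protease Mmp9 was among the first lowered in Neil1-labelled (−3.85 ± 0.22, FDR 1.91e-06) and Neil2-labelled EBs (−3.31 ± 0.30, FDR 0.00047), and Vim, a cytoskeletal gene typical of mesenchyme, lay beside it (−3.20 ± 0.27 and −3.07 ± 0.24).

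Of 16 genes of the MAP kinase cascades, which act upstream of the members, tested in EBs, 1 was called in Neil1-labelled, 2 in Neil2-labelled and 4 in Apex1-labelled libraries, and Fgf4, a growth factor of pluripotent cells, was raised in each (1.41 ± 0.08, 1.44 ± 0.13 and 0.93 ± 0.09). Of 8 SRF, TCF and CREB regulators, Elk3, a partner of SRF at serum response elements, was the first lowered in all 3 lines (−1.75 ± 0.22, −1.79 ± 0.26 and −1.20 ± 0.20). The 11 ERK feedback targets, which report signalling through that kinase, had 4, 3 and 2 lowered in EBs, among them Spred1 in both glycosylase lines (−1.35 ± 0.14 and −1.72 ± 0.15) and Phlda1 in Apex1-labelled EBs (−1.998 ± 0.19). In EBs + RA 7 and 5 of them were lowered in the Neil1-labelled and Neil2-labelled lines, first Spry1 (−2.12 ± 0.23 and −1.76 ± 0.23), and 2 were raised in the Apex1-labelled line, first Etv5 (1.79 ± 0.14). Of the 8 APEX1 and thioredoxin redox genes, 2 were lowered in the EBs + RA of each glycosylase line, among them Apex1 itself (−1.24 ± 0.26 and −1.21 ± 0.19), and in Apex1-labelled EBs 1 was raised, again Apex1 (2.33 ± 0.16), and 1 lowered, Txnrd2 (−0.58 ± 0.18, FDR 0.028). If the counting did not use strand, these Apex1 counts came only from exon bases outside the planned deletion, as given above. Of 8 heat shock genes, 3 were raised in the EBs + RA of each line, where 21.2%, 18.3% and 13.9% of all genes were raised, among them Hspb1 (2.07 ± 0.27, 1.65 ± 0.21 and 1.21 ± 0.20).

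Of 11 other AP-1 and bZIP partners tested in EBs, 2, 2 and 4 were lowered in the Neil1-, Neil2- and Apex1-labelled lines. Of those tested in EBs + RA, 6, 3 and 2 were raised and 1 was lowered in each line. Atf3, a stress-induced bZIP protein that pairs with JUN, was among the first raised in Neil1-labelled (1.70 ± 0.29, FDR 0.0034) EBs + RA. Of 6 RA target genes, 2, 3 and 1 were raised in the EBs + RA of the 3 lines and 1 was lowered in each. Their sum was 2252 to 2632 CPM in Neil1-labelled and 2461 to 3840 in Neil2-labelled EBs + RA. It was 1184 to 1732 in control and 1406 to 1488 in Apex1-labelled EBs + RA. The part of these genes in the response of the members to RA was not tested. In EBs + RA cardiac muscle markers had 2, 5 and 3 of 6 raised and 1 lowered in each line. Endothelial markers had 2 of 6 raised in each and 3, 3 and 1 lowered.

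Over the 12 groups, the mean of Egr1 ran from 83.9 CPM in control mESCs to 9.13 CPM in Neil1-labelled EBs, a 9.19-fold range. Control, Neil2-labelled and Neil1-labelled mESCs headed the order and overlapped each other, and Neil2-labelled EBs, Apex1-labelled mESCs and Neil1-labelled EBs closed it and overlapped each other. Fosb had the widest range of means (17.2-fold), followed by Fosl2 (12.0-fold) and Fos (11.9-fold), and Ier2 the narrowest of the 10 (1.82-fold). The members thus did not move as 1 block. Across the 33 libraries Pearson's r of log2 CPM was 0.901 for Jun and Jund, 0.843 for Jun and Fosl2 and 0.815 for Fos and Jun, and 0.040 for Egr1 and Jun. These are descriptions over libraries that share groups and depth.

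Among 11211 genes whose mean reached 5 CPM, the patterns most like Egr1 over the 33 libraries were those of St3gal4 (r = 0.815), Nab2 (0.805), which encodes a corepressor of EGR proteins, and Nradd (0.795). Those most like Fos were Prkcd (0.904), Atg7 (0.868) and Kdm6b (0.852). The most alike gene was Csf1 for Fosl2 (0.981), Sf3b5 for Ier2 (0.942), Ulk2 for Jun (0.928), Trp53i13 for Jund (0.914), Lmna for Junb (0.862), Atp1b1 for Dusp1 (0.852) and Anxa2 for Fosb (0.775). Csf1 followed Fosl2 more closely than any of these genes followed its own member.

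Promoters of 8 of the 10 members were matched by symbol in the RefSeq table (GRCm38.p6), which gives 300 bases for each start site. Both strands were searched for the CArG box bound by SRF, for TGACGTCA, bound by CREB, for TGACTCA, the AP-1 site, for TGACATCA, the variant known from the Jun promoter, for GCGGGGGCG, an EGR site, and for TATAAA. No matches of different motifs overlapped in the members. TGACATCA was found in Jun, and in 3.62% of all 32851 promoters. TGACGTCA was found in Dusp1 (1.79% of all), the CArG box in Egr2 (1.63%), GCGGGGGCG in Fosb and Fosl2 (2.91%) and TATAAA in Fos and Junb (13.6%). TGACTCA was in none of the 8 and in 5.2% of all promoters. The 250 bases before the start are shown for Jun, Dusp1 and Fos, as examples of 3 different motifs, with the matched letters in capitals.
Jun, chr4:95052223-95052472, minus strand: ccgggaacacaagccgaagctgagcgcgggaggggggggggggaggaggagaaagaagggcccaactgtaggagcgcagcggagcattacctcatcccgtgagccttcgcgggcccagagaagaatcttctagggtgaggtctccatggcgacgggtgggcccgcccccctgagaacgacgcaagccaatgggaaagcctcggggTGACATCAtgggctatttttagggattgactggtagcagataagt
Dusp1, chr17:26508473-26508722, minus strand: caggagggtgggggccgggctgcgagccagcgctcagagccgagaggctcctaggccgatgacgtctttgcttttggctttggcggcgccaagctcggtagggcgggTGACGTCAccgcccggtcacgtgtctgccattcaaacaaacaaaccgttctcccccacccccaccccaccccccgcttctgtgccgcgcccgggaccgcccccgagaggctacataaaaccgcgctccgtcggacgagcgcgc
Fos, chr12:85473640-85473889, plus strand: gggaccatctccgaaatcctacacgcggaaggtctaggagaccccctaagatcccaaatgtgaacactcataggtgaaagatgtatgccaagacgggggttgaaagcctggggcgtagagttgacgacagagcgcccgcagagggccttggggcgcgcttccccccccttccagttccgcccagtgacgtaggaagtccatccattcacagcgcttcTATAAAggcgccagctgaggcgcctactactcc
In Jun the match began 45 bases before the start, in Dusp1 143 bases before and in Fos 33 bases before. The TATAAA of Junb began at the start itself. Sites outside the 300 bases were not searched. A match describes the letters only, and these data hold no measure of binding.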

How the data were processed

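The authors aligned the RNA-seq reads to mm9 with TopHat2 2.0.9 and Bowtie2 2.1.0, counted reads per Ensembl gene with HTSeq 0.5.4 per the submitters' notes, and deposited raw counts, 1 file per library. The strand setting of the counting is not given in the sources used here, and the TruSeq kit does not mark strand. Of the 37991 gene IDs, 37205 were matched to the NCBIM37 annotation. Reads not aligned uniquely (11.44 to 19.85%), without a gene or ambiguous stayed out of totals. Counts were fitted per comparison with edgeR 4.0.16 (filterByExpr, TMM, robust quasi-likelihood test) in R 4.3.3, without a block, and adjusted over all genes tested. Error values of fold changes are SE, the log2 fold change over the root of F. DESeq2 1.42.0 was an alternative. Members, lists and tests were chosen with earlier results of these data known. Genes other than members were named as the 2 with the lowest FDR in each direction of a list, or fewer, and as the most alike in pattern, which for Egr2 is not reported here. No 2 replicate libraries agreed within sampling noise (chi-square per degree of freedom 5.94 to 137). Stages of a genotype share clones per the labels, and a fit with the clone as a block was an alternative there. Deviations of libraries with the same number correlated with r from −0.47 to 0.483 over all stages (median 0.0823, 33 pairs), and from 0.167 to 0.483 in the 11 pairs of EBs and EBs + RA. Promoters are from RefSeq (GRCm38.p6), with none for Egr1 and Ier2.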

Additional observations from a re-analysis of the deposited data

Results flagged for a closer look

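The response to RA differed from that of the control, by the interaction term in edgeR at an FDR below 0.1, for 13 pairs of a member and a line. In the Neil1-labelled line the differences on the log2 scale were 3.10 for Fos, 2.74 for Junb, 2.54 for Fosl2, 1.82 for Fosb, 1.51 for Jun and 1.37 for Dusp1. In the Neil2-labelled line they were 2.07 for Fosl2, 1.86 for Junb and 1.82 for Fos. In the Apex1-labelled line they were 2.53 for Junb, 1.72 for Jun, 1.64 for Fosl2 and −1.43 for Egr1, and these 4 did not pass with the technical duplicates summed. All 3 lines were set against the same 6 control libraries.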

How the results depend on the processing

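Of 662 values of called members under the alternatives, 572 stayed called, 90 did not pass and none changed direction, and of 1006 values of members not called, 36 passed. The number of members called became, for Neil1-labelled mESCs, 1 with all groups in 1 fit and 2 with DESeq2, and for Neil2-labelled mESCs 1 without the filter on low counts, 1 with DESeq2 and 1 with the replicate block. It became 2 for Neil1-labelled EBs + RA at an FDR of 0.05 or without the filter, 2 for Neil2-labelled EBs + RA without the filter, 1 for Apex1-labelled EBs + RA with the duplicates summed, and 3 for control EBs against mESCs with all groups in 1 fit. For the response to RA it became 1 in the Neil2-labelled line at an FDR of 0.05 or without the filter, and in the Apex1-labelled line 2 with all groups in 1 fit and 0 with the duplicates summed, where edgeR had 4 members at an unadjusted p under 0.05. Apart from fewer libraries in the summed fits, the cause was not tested.

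With 1 library left out, the members called ranged from 0 to 0 in Neil1-labelled and 0 to 1 in Neil2-labelled mESCs, where the 1 was Fos without control clone #7, from 5 to 6, 3 to 5 and 4 to 5 in Neil1-, Neil2- and Apex1-labelled EBs, and from 2 to 5, 2 to 5 and 1 to 5 in their EBs + RA. They ranged from 3 to 5 between control mESCs and EBs, from 4 to 6 between control EBs and EBs + RA, and from 5 to 7, 1 to 5 and 2 to 5 for the response to RA. The median of Apex1-labelled mESCs ranged from −1.51 to −0.89.

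Genotypes of a stage share only a replicate number (r from −0.443 to 0.561, 45 pairs). With that number as a replicate block, all genes called went from 283 to 0 in Neil1-labelled and from 286 to 634 in Neil2-labelled mESCs, and among the members Fos was added in Neil2-labelled mESCs, and Junb was added and Ier2 lost in Apex1-labelled EBs + RA. In mESCs the counts of all genes called also moved to 5 and 22 at an FDR of 0.05, 503 and 479 without the filter and 999 and 804 with DESeq2, and to 1279 for Neil1-labelled mESCs with all groups in 1 fit. With the duplicates summed, 1400 in place of 4026 genes were called in Apex1-labelled EBs + RA and 662 in place of 2646 for the response to RA, where an FDR of 0.05 gave 1741. Scaling by library totals moved the group means of members by 0.915 to 1.11 times. A count of 1 was worth up to 0.0465 CPM, which limits Egr2 and, in the EBs of the labelled lines, Fosb.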
